A study of Mus musculus with 4 samples.

Results

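Expression of 6 genes that govern whether a phagocyte engulfs a neighbouring cell was measured by single-cell RNA sequencing in malignant ascites of mice. The genes were Cd24a, Cd47, Sirpa, Siglecg, Lrp1 and Calr, taken by symbol from 29835 genes in the joined count tables, and all 6 were found. Cells were assigned by transcript counts alone. A tumour cell had at least 5 unique molecular identifiers (UMIs, each 1 captured mRNA molecule) of Krt7, Krt8, Krt18, Krt19 and Wt1 together and no Ptprc, and tumour cells were divided into those with at least 2 UMIs of Gkn2 and Krtdap together and the others. A myeloid cell had at least 3 UMIs of Lyz2 and Csf1r with at most 2 keratin UMIs, a T cell at least 2 UMIs of Cd3d, Cd3e and Cd3g, and a B cell at least 3 UMIs of Cd79a and Cd79b. None of the 6 genes was used to assign a cell, but the genes and gates were chosen with earlier results of these data known. Of 42921 cells kept, 24884 were tumour, 4832 myeloid, 2480 T and 3502 B, 7791 fell in no gate, and 565 met more than 1 gate and were counted in each.

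Phagocytosis is set by a balance of inhibitory and stimulatory contacts. CD47 on a target cell engages SIRPα on macrophages, and CD24, a small sialylated glycoprotein, engages sialic acid-binding receptors, in the mouse Siglec-G and in humans Siglec-10; both contacts recruit tyrosine phosphatases that hold engulfment back. Calreticulin, an endoplasmic reticulum chaperone encoded by Calr, acts in the opposite direction when exposed at the surface, where the endocytic receptor LRP1 recognises it. CD24 is also a known surface marker of developing B cells, dendritic cells, granulocytes and many carcinomas. All values here are mRNA levels, so surface protein, sialylation and calreticulin exposure were not measured.

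The mice were 6-week-old female C57BL/6 animals injected intraperitoneally with ID8-Trp53-/- cells, a mouse ovarian surface epithelial line with a CRISPR-Cas9 knockout of Trp53 that also carried a fluorescent reporter. After 7 days of engraftment, the control group received DMSO with an IgG2a isotype antibody, the BTYNB group received BTYNB, an inhibitor of the RNA-binding protein Igf2bp1, with the isotype antibody, the anti-PD-1 group received DMSO with the PD-1 blocking antibody clone RMP1-14, and the combination group received BTYNB with the blocking antibody. Per the labels, BTYNB was given at 50 mg/kg and antibodies at 100 ng per dose, whereas other amounts stand in the published methods. Ascites was taken at about 3 mL, depleted of erythrocytes, and pooled over the animals of a group. Each group was therefore 1 library, the difference between animals could not be estimated, no test between groups was possible, and every interval given is a 95% interval for counting error only. Trp53 was counted at 24.9 to 34.1 CPM (UMIs of the gene per 1000000 UMIs of the cells summed) in tumour cells of all groups, which carry the same knockout, and 3′ counts do not show a frameshift.

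After quality filtering, 7443 cells remained in control, 17369 under BTYNB, 11419 under anti-PD-1 and 6690 under the combination, with 74337738 to 106424078 UMIs per library. The BTYNB library stood apart, with a median of 2531 UMIs per cell against 6919 to 9464.5 in the others and a smallest cell of 869 UMIs against 3534 to 5115. No pair of libraries shared more than 4 cell barcodes, and no shared barcode had the same counts. Tumour cells were 91.0% of cells in control, 20.4% under BTYNB, 91.1% under anti-PD-1 and 62.3% under the combination. The tumour and myeloid gates were checked against markers that they do not use. Msln, Upk1b, Upk3b and Lrrn4 together stood at 780 to 993 CPM in tumour and 18.5 to 102 CPM in myeloid cells, and Cd68, Adgre1, Itgam, Fcgr1 and Cd14 at 2152 to 2736 CPM in myeloid and 11.0 to 23.8 CPM in tumour cells, with each gene higher in its own gate in every library. Labels held less well for lymphocytes: the T and B gates had 22 and 29 cells in control and 30 and 35 cells in anti-PD-1, most of them with more than 2 keratin UMIs, and in combination 158 of 271 B-gated cells had more than 2 keratin UMIs. Lymphocyte values are therefore described mainly for the BTYNB library. There, 196 of 3167 B-gated cells had more than 2 keratin UMIs but held 5189566 of the 11650642 UMIs of the gate. Levels over all B-gated cells of BTYNB are therefore partly those of keratin-positive cells. The split by Gkn2 and Krtdap also differed between libraries. Only in anti-PD-1 did cells have at least 2 UMIs of Gkn2, a gastric mucosa gene, in number (1447 cells), against 1 cell in control, 0 in BTYNB and 1 in combination, where Krtdap, a keratinocyte gene, alone fulfilled the criterion.

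Cd24a, encoding the Siglec ligand, varied more than any other of the 6 genes in tumour cells. Its level was 32.5 CPM in control (31.2 to 33.9), 21.6 under BTYNB (20.4 to 22.8), 195 under anti-PD-1 (192 to 198) and 24.7 under the combination (23.4 to 26.1). The anti-PD-1 library thus lay far above the others, whose values fell within a narrow band. After thinning of each cell to 1000 UMIs, to remove the effect of depth, a Cd24a transcript was expected in 2.72% of tumour cells in control, 2.05% under BTYNB, 12.3% under anti-PD-1 and 2.12% under the combination, and without thinning the shares were 17.8%, 15.3%, 35.1% and 17.1%. As a reference for free RNA, the thinned share was 1.11% in T-gated cells of the BTYNB library, in which cells had a median of 2046.5 UMIs against 15377 in tumour cells. By level the order was the opposite, with 40.3 CPM in these T-gated cells and 21.6 CPM in tumour cells of BTYNB, so no order is read between them, and the small T gates of the other libraries were not used as a reference.

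The surplus in anti-PD-1 was concentrated in Gkn2/Krtdap-positive tumour cells. In these cells Cd24a stood at 401 CPM (393 to 408, 3379 cells), compared with 55.2 in control (939 cells), 33.8 under BTYNB (815 cells) and 40.4 under the combination (1149 cells). The other tumour cells had 67.0 CPM under anti-PD-1, 27.9 in control, 15.4 under BTYNB and 16.8 under the combination. Within every library, the Gkn2/Krtdap-positive cells were thus above the other tumour cells, but by different amounts. On the log2 scale with a pseudocount of 1 CPM, the difference was 2.56 in anti-PD-1 (2.52 to 2.64), 0.96 in control (0.85 to 1.11), 1.09 in BTYNB (0.97 to 1.30) and 1.22 in combination (1.10 to 1.42). Of all genes with at least 100 UMIs in either set of cells, 3.44% were at least 2-fold higher in the Gkn2/Krtdap-positive cells of anti-PD-1, 0.305% in control, 0.165% in BTYNB and 0.183% in combination; of the 6 genes, Cd24a alone was, in each library but control. Of 5 dendritic-cell genes, markers of a further class that carries CD24, Ccr7 stood at 91.3 CPM in the Gkn2/Krtdap-positive cells of anti-PD-1 against 6.87 to 9.48 CPM in the other libraries, and Flt3, Xcr1, Clec9a and Cd209a each at no more than 0.433 CPM in these anti-PD-1 cells.

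Cd24a rose stepwise with the number of Gkn2 and Krtdap UMIs in a cell. In anti-PD-1 it was 57.6 CPM in tumour cells with none, 95.5 CPM with 1, 212 CPM with 2 to 4, 335 CPM with 5 to 9 and 580 CPM with 10 or more. In control the corresponding values ran from 24.9 to 72.6 CPM, in BTYNB from 14.5 to 51.7 CPM and in combination from 15.8 to 57.7 CPM. Anti-PD-1 lay above control at each step, and the gap between them widened from 2.31-fold in cells without Gkn2 and Krtdap to 7.98-fold in cells with 10 or more. Cells with more of these UMIs were also deeper (median 6264 UMIs with none and 9413 with 10 or more in anti-PD-1), a difference that CPM removes on average only. The steps were not matched between libraries. In control, cells with 10 or more had a median of 15007 UMIs, 866 CPM of Krtdap and 0.773 CPM of Gkn2. In anti-PD-1 they had 1309 CPM of Krtdap and 1651 CPM of Gkn2. In anti-PD-1, cells with at least 2 Gkn2 UMIs had 624 CPM of Cd24a (610 to 637), and the 1874 cells chosen by Krtdap alone had 221 CPM (214 to 228), against 55.3, 33.8 and 40.0 CPM in the cells chosen by Krtdap alone in control, BTYNB and combination.

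**Figure D1:**
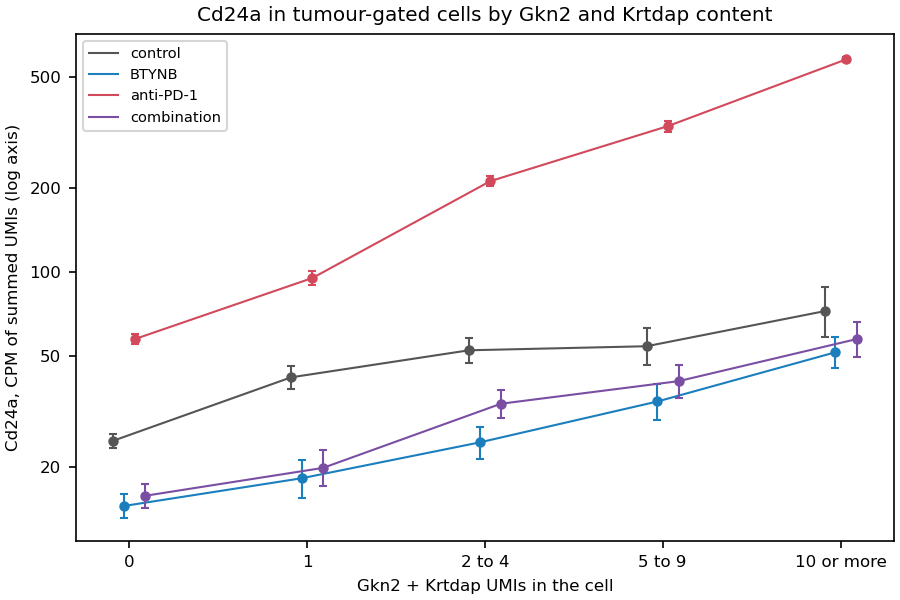
Cd24a level in tumour-gated cells (y axis, CPM of summed UMIs, log axis) by the number of Gkn2 and Krtdap UMIs in the cell (x axis), with a line per library and bars for 95% Poisson intervals. The anti-PD-1 line runs from 57.6 to 580 CPM above the 3 other lines, which end between 51.7 and 72.6 CPM.

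The difference was largest in cells with many Cd24a transcripts but not confined to them. Cells with 1 to 4 Cd24a UMIs made up 23.0% of tumour cells in anti-PD-1, 16.9% in control, 13.7% in BTYNB and 16.2% in combination. Cells with at least 5 Cd24a UMIs made up 12.1% of anti-PD-1 tumour cells (1261 cells, 11.5 to 12.8%), against 0.856% in control (58 cells), 1.61% in BTYNB (57 cells) and 0.960% in combination (40 cells). Among Gkn2/Krtdap-positive cells of anti-PD-1 the share was 32.2%, and 9.14% had 10 or more. Among the other tumour cells of the same library it was 2.48%, still above the 0.530% to 0.733% of the 3 other libraries. Tumour cells with at least 5 Cd24a UMIs, compared with those without any, had more Calr in control (log2 ratio 0.57), BTYNB (0.50) and anti-PD-1 (0.30), and Cd47 that differed by at most 0.21 in size; in combination fewer than 50 cells had that many Cd24a UMIs. These cells were deeper by selection, and the part of depth in this difference was not tested.

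**Figure D2:**
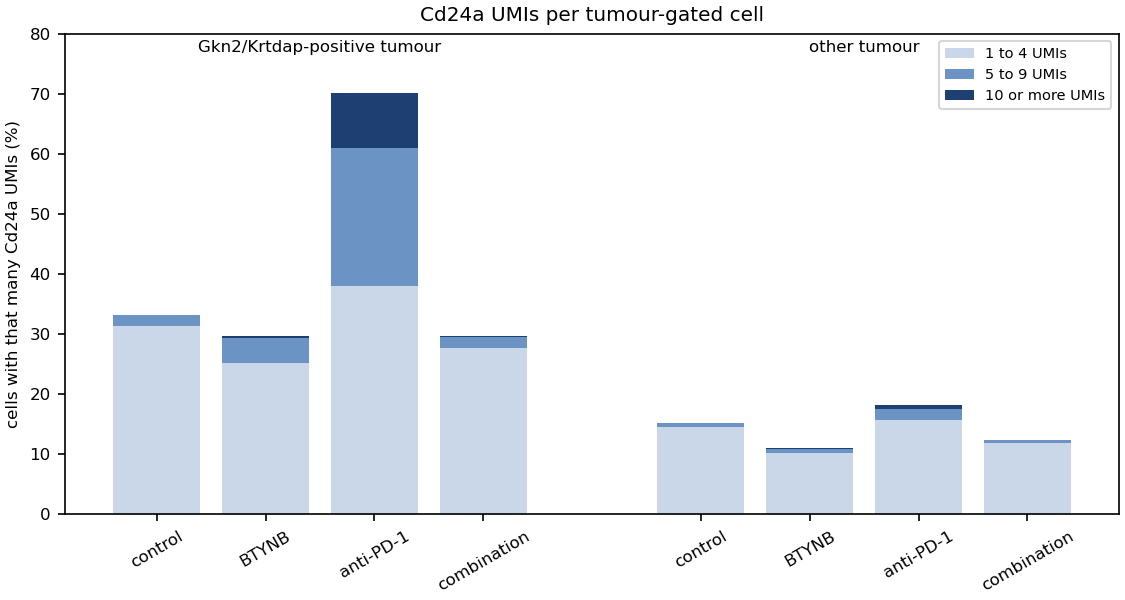
Percentage of Gkn2/Krtdap-positive (left) and other (right) tumour-gated cells with 1 to 4, 5 to 9 and 10 or more Cd24a UMIs in each library, as stacked bars from 0. In anti-PD-1, 32.2% of the Gkn2/Krtdap-positive cells had 5 or more UMIs, against 1.92% to 4.54% in the other libraries. The classes are raw counts, not corrected for the depth of the cells.

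Compared between libraries, Cd24a in tumour cells was 5.99-fold above control in the anti-PD-1 library (log2 ratio 2.55, 2.52 to 2.65) and 7.89-fold lower in combination than in anti-PD-1 (log2 ratio -2.93, -3.06 to -2.90). In BTYNB it was lower than in control by less than 2-fold (log2 ratio -0.57, -0.69 to -0.49), and combination and BTYNB differed little (0.19, 0.08 to 0.31). Of the 6 genes, Cd24a alone passed 2-fold in the tumour cells of anti-PD-1 against control, where 3.09% of all measured genes did so, and in combination against anti-PD-1, where 3.12% did. None of them passed it in BTYNB against control (0.881% of genes) or in combination against BTYNB (0.146%). Without the Gkn2/Krtdap-positive cells, both differences were reduced but still past 2-fold, with a log2 ratio of 1.23 between anti-PD-1 and control (1.55% of genes past 2-fold) and of -1.93 between the combination and anti-PD-1 (1.32%), and the ratio of BTYNB to control was then -0.82.

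**Figure D3:**
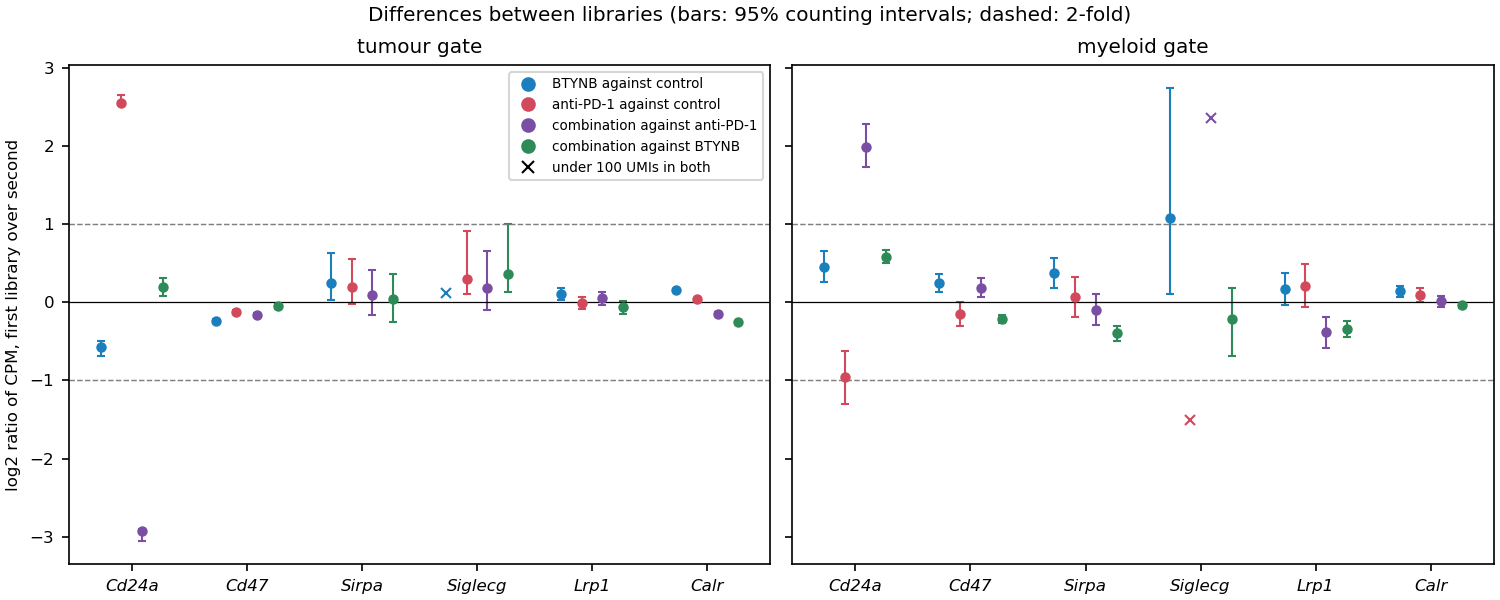
Log2 ratio of CPM (y axis, pseudocount 1 CPM) of each gene (x axis) between libraries in tumour-gated (left) and myeloid-gated (right) cells, with 95% counting intervals as bars and dashed lines at 2-fold. Crosses mark genes with fewer than 100 UMIs in both libraries. Cd24a reaches 2.55 and -2.93 in tumour cells and 1.98 in myeloid cells, and Cd47, Lrp1 and Calr stay within 2-fold.

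Cd47, the ligand of SIRPα, was expressed in every cell class with small differences. In tumour cells it stood at 345 CPM in control, 292 under BTYNB, 315 under anti-PD-1 and 282 under the combination. All 3 treated libraries were thus below control, with log2 ratios of -0.24 for BTYNB (-0.27 to -0.21) and -0.13 for anti-PD-1 (-0.15 to -0.10), and combination was below anti-PD-1 by a ratio of -0.16. Unlike Cd24a, Cd47 was not higher in Gkn2/Krtdap-positive than in other tumour cells, with log2 ratios between -0.15 and -0.00 in the 4 libraries. In myeloid cells Cd47 was 410 CPM in control, 488 under BTYNB, 370 under anti-PD-1 and 420 under the combination, and in the T- and B-gated cells of BTYNB it was 487 and 438 CPM. Over the 16 combinations of gate and library with at least 50 cells, the highest Cd47 level was in BTYNB myeloid cells and the lowest in the Gkn2/Krtdap-positive cells of combination (274 CPM), and 12 of 15 neighbours in this order had overlapping intervals.

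Sirpa, encoding the phagocyte receptor for CD47, was a myeloid gene in all libraries. Myeloid cells had 144 CPM in control (126 to 163), 186 under BTYNB (179 to 193), 151 under anti-PD-1 (132 to 170) and 141 under the combination (133 to 149), whereas tumour cells had between 2.55 and 3.34 CPM. BTYNB was the highest library, and the intervals of the other 3 overlapped. Relative to control, the log2 ratio was 0.37 under BTYNB (0.18 to 0.56) and 0.06 under anti-PD-1 (-0.20 to 0.33). The combination had a ratio of -0.09 to anti-PD-1 alone (-0.29 to 0.11) and of -0.40 to BTYNB alone (-0.49 to -0.31). The thinned share of Sirpa in BTYNB tumour cells, 0.422%, was below the 0.590% in T-gated cells of the same library, which were far shallower. Whether the low tumour values exceed free RNA was not tested. Counts of Sirpa may include reads of its close relatives Sirpb1a, Sirpb1b and Sirpb1c, of which Sirpb1c was counted at 160 to 348 CPM in myeloid cells, with BTYNB again the highest library.

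**Figure D4:**
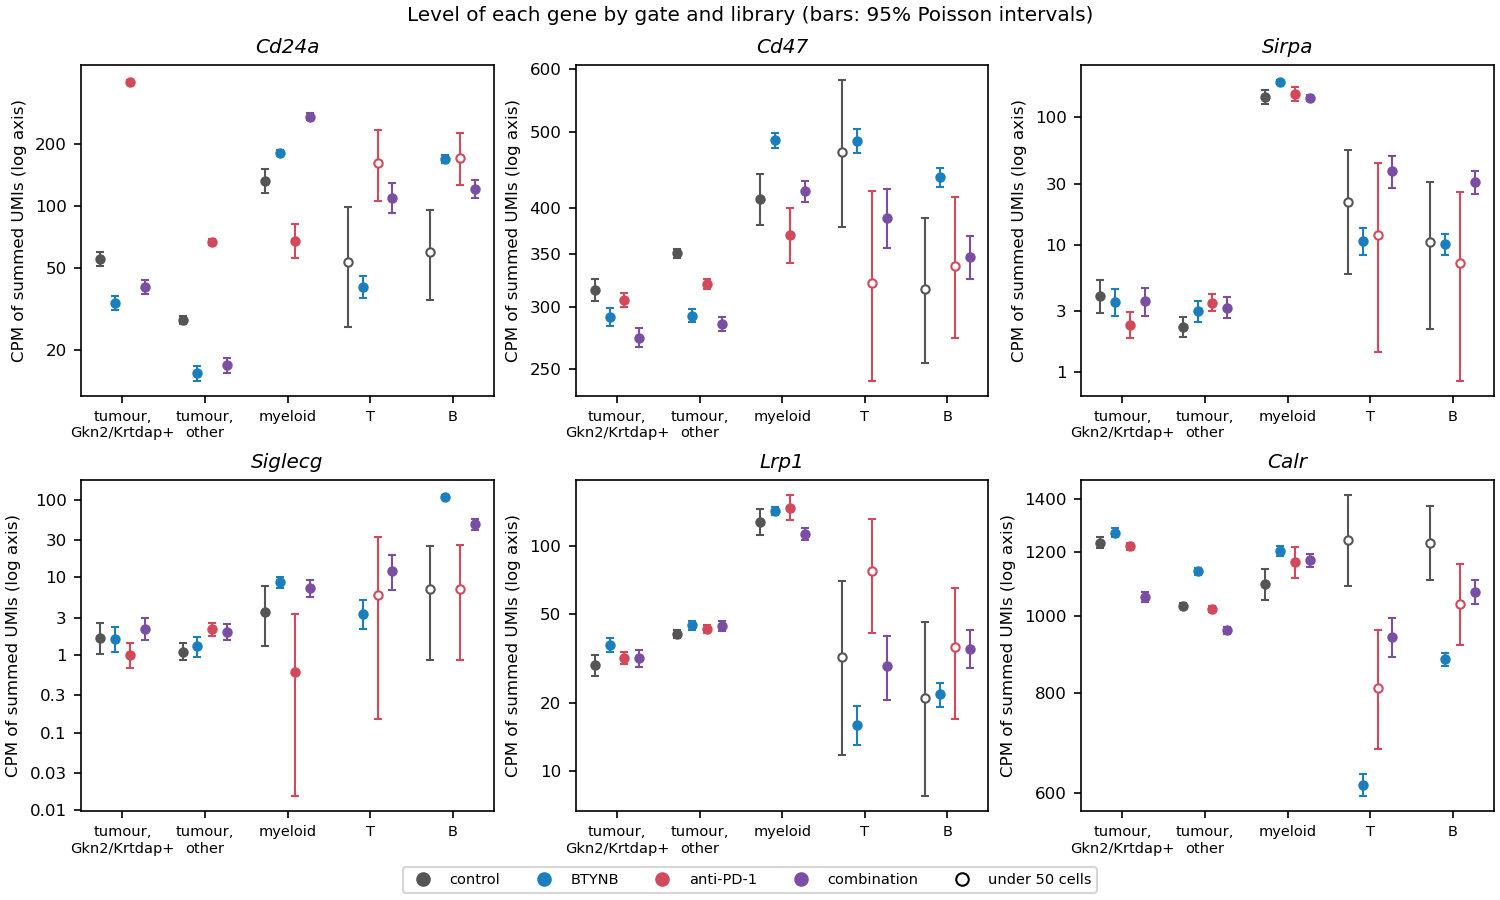
Level of each of the 6 genes (y axis, CPM of summed UMIs, log axis) by gate (x axis) and library (colour), with 95% Poisson intervals as bars and open circles for groups of under 50 cells; a level of 0 is not drawn. Sirpa stands at 141 to 186 CPM in myeloid and under 4 CPM in tumour cells, and Siglecg at 107 CPM in the B-gated cells of BTYNB.

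Siglecg, the mouse receptor for CD24, was found mainly in B cells. In BTYNB it was 107 CPM in B-gated cells (102 to 113, 3167 cells), 8.60 CPM in myeloid, 3.41 CPM in T-gated and 1.39 CPM in tumour cells, and B-gated cells held 63.2% of all Siglecg UMIs of the library. In combination, B-gated cells had 48.1 CPM (40.6 to 56.7, 271 cells), less than in BTYNB (log2 ratio -1.14, -1.42 to -0.91). This direction did not hold with a UMI floor: among cells with at least 5115 UMIs, which all 271 combination cells and 285 BTYNB cells had, the ratio turned to 1.80, and 189 of these BTYNB cells had more than 2 keratin UMIs. It stayed below 2-fold, at -0.75, in cells of exactly 1 gate and at -0.41 with doubled gate limits. Restricted to B-gated cells with at most 2 keratin UMIs, a limit chosen after the values were seen, the levels were 189 CPM in 2971 BTYNB cells and 124 CPM in 113 combination cells, and the log2 ratio was -0.60 (-0.92 to -0.31). The 7 myeloid markers together stood at 448 CPM in these BTYNB cells and at 4204 CPM in these combination cells, and their part in the difference was not tested. At 2-fold, combination against BTYNB had 2 of the 6 genes in B-gated cells (Sirpa higher, and Siglecg lower with the limits just given) beside 9.67% of all measured genes. In BTYNB, B-gated cells with Fcer2a and without Bhlhe41, Zbtb32 or Cd5, a pattern of follicular cells, had 159 CPM of Siglecg (147 to 173). Those with Bhlhe41, Zbtb32 or Cd5 and without Fcer2a, a pattern of innate-like cells, had 102 CPM (78.4 to 130). More than 2 keratin UMIs were found in 37 of the 1393 follicular-pattern cells and in 12 of the 97 innate-like cells. The part of these keratin-positive cells in the difference was not tested.

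Myeloid cells carried little of the CD24 receptor. Siglecg in myeloid cells was 3.57 CPM in control (6 UMIs), 8.60 under BTYNB (133 UMIs), 0.605 under anti-PD-1 (1 UMI) and 7.23 under the combination (68 UMIs). It was lower in the C1q-positive, macrophage-like cells (at least 3 UMIs of C1qa, C1qb and C1qc), with 3.70 CPM in BTYNB and 3.35 CPM in combination, than in the remaining myeloid cells, with 15.8 and 19.6 CPM. In tumour cells Siglecg stood between 1.20 and 2.06 CPM. Its thinned share of 0.178% in BTYNB tumour cells was below that in T-gated cells (0.277%), which were far shallower. Whether these low tumour values exceed free RNA was not tested. The control and anti-PD-1 counts in myeloid cells are too small for a direction to be drawn.

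Lrp1, the receptor for exposed calreticulin, was highest in myeloid cells and lower but present in tumour cells. Its myeloid level was 128 CPM in control (112 to 147), 144 under BTYNB (138 to 150), 149 under anti-PD-1 (131 to 169) and 114 under the combination (107 to 121), the combination library being lowest. The log2 ratio of the combination was -0.39 to anti-PD-1 (-0.59 to -0.18) and -0.34 to BTYNB (-0.45 to -0.24). In tumour cells it was 38.8, 41.8, 38.6 and 39.9 CPM in control, BTYNB, anti-PD-1 and combination, and no pair of libraries compared differed by more than 0.10 on the log2 scale. Lrp1 was lower in Gkn2/Krtdap-positive than in other tumour cells in all 4 libraries (log2 ratios between -0.46 and -0.28), opposite to Cd24a.

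Calr, encoding calreticulin, was abundant in all cells and differed little between libraries in tumour and myeloid cells. In tumour cells its level was 1063 CPM in control, 1181 under BTYNB, 1097 under anti-PD-1 and 990 under the combination. BTYNB was highest and the combination lowest, with a log2 ratio of 0.15 between BTYNB and control (0.14 to 0.17) and of -0.25 between the combination and BTYNB (-0.27 to -0.24). Gkn2/Krtdap-positive tumour cells had more Calr than other tumour cells in each library, by 0.26 in control and anti-PD-1, 0.16 in BTYNB and 0.14 in combination on the log2 scale. Myeloid cells had 1094, 1206, 1166 and 1174 CPM in control, BTYNB, anti-PD-1 and combination, and the 16 levels ran from 1270 CPM in Gkn2/Krtdap-positive cells to 613 CPM in T-gated cells, both of BTYNB.

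Cd24a was expressed by immune cells as well, and its level was higher in myeloid than in tumour cells in each library but anti-PD-1. Myeloid cells had 132 CPM in control (115 to 151), 181 under BTYNB (174 to 187), 67.7 under anti-PD-1 (55.8 to 81.5) and 271 under the combination (260 to 281). The library with the highest Cd24a in tumour cells thus had the lowest in myeloid cells. The combination was above anti-PD-1 by a log2 ratio of 1.98 (1.73 to 2.29), and Cd24a was the only one of the 6 genes with at least 100 UMIs past 2-fold in this comparison, in which 5.37% of genes were past it. Cd24a did not pass 2-fold between BTYNB and control (0.45), between anti-PD-1 and control (-0.95) or between the combination and BTYNB (0.58). In these comparisons 9.34%, 1.73% and 2.95% of genes did. Siglecg passed it in the first (1.07, 0.11 to 2.74), on 6 UMIs in control. None of the 6 genes with at least 100 UMIs passed it in the others.

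Myeloid Cd24a was unevenly distributed among subsets. Cells with fewer than 3 C1q UMIs had 361 CPM in BTYNB (1331 cells) and 696 CPM in combination (304 cells), and C1q-positive cells had 57.4 and 137 CPM, log2 ratios of -2.63 and -2.33. In control and anti-PD-1 the C1q-positive cells had 91.4 and 52.7 CPM, and fewer than 50 cells were C1q-low. Dendritic-cell genes (Flt3, Xcr1, Clec9a, Cd209a and Ccr7, summed) stood at 64.8, 356, 58.7 and 443 CPM in the myeloid cells of control, BTYNB, anti-PD-1 and combination. The order was that of myeloid Cd24a, but control and anti-PD-1 lay close, whereas Cd24a was 132 and 67.7 CPM there. The part of dendritic-cell genes in the Cd24a differences was not tested. Myeloid cells with at least 2 UMIs of these genes, a division made after the values were seen, had 683 CPM of Cd24a in BTYNB (349 cells) and 727 CPM in combination (284 cells), and the difference between the 2 libraries in these cells was small (log2 ratio 0.09, -0.01 to 0.19).

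Without the dendritic-gene cells, myeloid Cd24a was 127 CPM in control, 64.9 under BTYNB, 47.8 under anti-PD-1 and 136 under the combination. BTYNB then lay below control (log2 ratio -0.96, -1.20 to -0.75) instead of above it, anti-PD-1 was past 2-fold below control (-1.40, -1.82 to -1.03), and the combination was past 2-fold above BTYNB (1.06, 0.94 to 1.21). In the C1q-positive cells the corresponding ratios were -0.66, -0.78 and 1.25. Markers of neutrophils, a further cell type that carries CD24, were summed at 418, 1936, 53.2 and 37.8 CPM in the myeloid cells of control, BTYNB, anti-PD-1 and combination; the 79 BTYNB myeloid cells with at least 10 UMIs of S100a8 and S100a9 had 583 CPM of Cd24a, and 464 such cells in no gate had 475 CPM. Cells in no gate with at least 2 UMIs of the dendritic-cell genes had Cd24a levels of 369, 484, 525 and 696 CPM in the same order; in anti-PD-1 these were 77 cells with 2754 CPM of summed tumour markers.

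**Figure D5:**
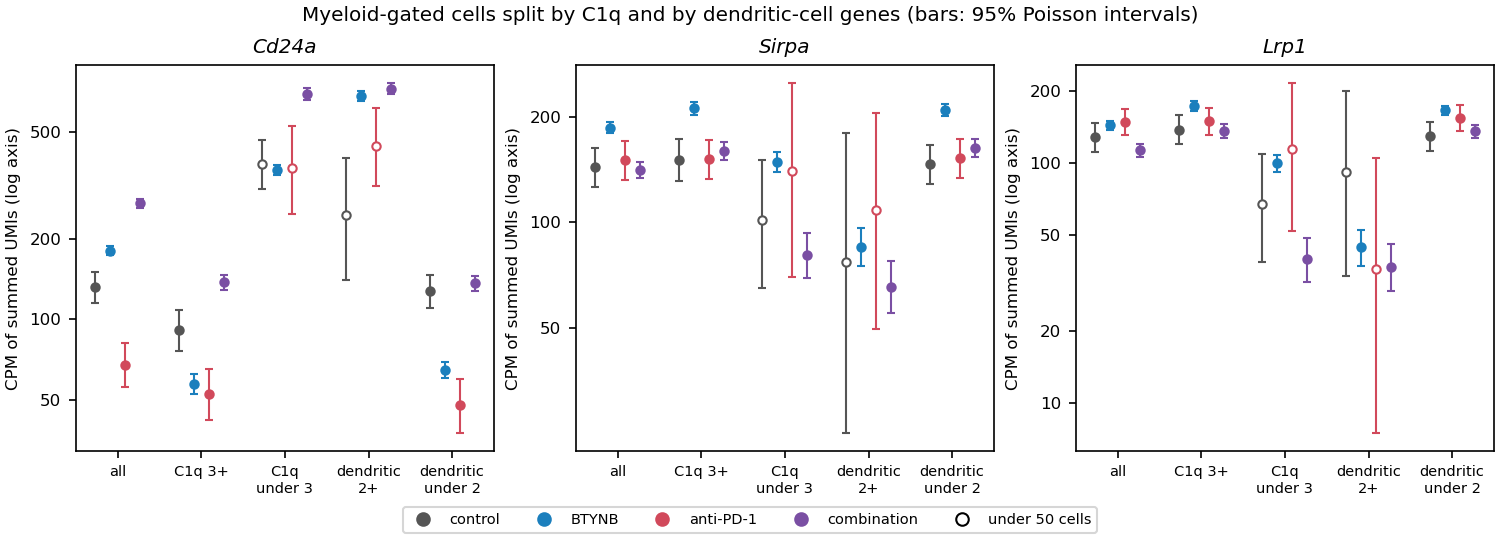
Levels of Cd24a, Sirpa and Lrp1 (y axes, CPM of summed UMIs, log axes) in all myeloid-gated cells and in those split by C1q UMIs (3 or more, or fewer) and by dendritic-cell genes (2 or more UMIs, or fewer), by library (colour), with 95% Poisson intervals as bars and open circles for groups of under 50 cells. In BTYNB and combination, Cd24a is higher and Sirpa and Lrp1 are lower in the C1q-low and dendritic-gene cells.

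Sirpa and Lrp1 ran opposite to Cd24a in these subsets. In BTYNB, dendritic-gene cells had 85.2 CPM of Sirpa and 44.5 CPM of Lrp1, against 209 and 167 CPM in the other myeloid cells, and in combination 65.5 and 37.0 CPM against 163 and 136 CPM. Siglecg was higher in the dendritic-gene cells, with 30.4 CPM in BTYNB and 19.7 in combination, against 3.58 CPM in the other myeloid cells of both libraries. The C1q-positive cells accordingly had more Sirpa than the C1q-low cells, at 211 against 149 CPM in BTYNB and 160 against 80.7 CPM in combination.

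B-gated cells were the other Cd24a-rich immune class in BTYNB, at 170 CPM (163 to 178), or 280 CPM with at most 2 keratin UMIs. T-gated cells of the same library had 40.3 CPM (35.6 to 45.6). In combination, B-gated cells with at most 2 keratin UMIs had 330 CPM (291 to 372) in 113 cells, close to BTYNB (log2 ratio 0.24, 0.04 to 0.43), whereas all B-gated cells had 121 CPM, below BTYNB by a ratio of -0.48. T-gated cells of combination had 109 CPM in 154 cells, of which 61 were also in another gate; there 14.6% of genes, and Cd24a among the 6 (1.42, with at least 100 UMIs), passed 2-fold against BTYNB. Their counterparts with at most 2 keratin UMIs had 199 CPM in combination (95 cells) and 41.9 CPM in BTYNB, and 3505 and 526 CPM of summed myeloid markers.

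Put as shares of all Cd24a UMIs in a library, tumour cells contributed most in control and anti-PD-1 and the minority elsewhere. In anti-PD-1, 75.2% lay in Gkn2/Krtdap-positive tumour cells, which held 35.8% of all UMIs. In BTYNB, 6.28% and 5.66% lay in Gkn2/Krtdap-positive and other tumour cells, 26.9% in myeloid, 19.1% in B-gated and 42.6% in ungated cells. In combination, 35.6% lay in myeloid and 41.5% in ungated cells. For Cd47 and Calr, the Gkn2/Krtdap-positive cells of anti-PD-1 held 34.5% and 39.9% of the UMIs, near their 35.8% of all UMIs.

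Other genes of the pathway were examined as a list of 62 genes, the 6 included, covering inhibitory ligands and receptors, the Siglec family, CD47 partners, engulfment receptors and bridging molecules, LRP1 and calreticulin partners, and sialic acid transfer. In tumour cells of anti-PD-1 against control, 7 of 47 measured genes were at least 2-fold higher and 0 lower, with a list median of 0.16, beside 2.64% higher, 0.448% lower and a median of -0.07 over all measured genes. The 7 myeloid markers summed to 54.3 CPM in these anti-PD-1 cells and 26.2 CPM in control, and their part in the list was not tested. With Cd24a, the largest were Pdcd1, encoding PD-1 itself (8.82 against 0.367 CPM, log2 ratio 2.84, which the pseudocount makes smaller than the ratio of levels), St3gal6, a sialyltransferase (49.5 against 12.8 CPM, 1.87), and Itgb2, the β2 integrin chain (29.5 against 9.38 CPM, 1.55). In combination against anti-PD-1, 0 of 46 were higher and 4 were lower (2.53% of all genes were lower): Cd24a, Pdcd1 (log2 ratio -2.60), St3gal6 (-1.75) and Itgb3, an integrin chain of vitronectin receptors (-1.24). No listed gene passed 2-fold in BTYNB against control among 43 measured. In combination against BTYNB the 3 C1q genes alone did (0.0974% of all genes were higher), C1qa (1.39), C1qc (1.38) and C1qb (1.27), all at no more than 9.99 CPM. The C1q genes are known macrophage transcripts. The summed myeloid markers in tumour cells were 55.6 CPM in combination and 30.5 CPM in BTYNB, and their part in the C1q ratios was not tested.

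In myeloid cells, 2 of 51 measured listed genes were higher and 3 lower in BTYNB than in control, near the 4.21% and 5.13% of all measured genes. The largest ratios were those of the Siglec family member Cd33 (52.9 against 176 CPM, log2 ratio -1.71) and of Slamf7 (111 against 36.3 CPM, 1.59). Slamf7 is a self-ligand that promotes engulfment of haematopoietic cells. Next came Mfge8, a bridging molecule for phosphatidylserine (-1.33), and the complement component C1qa (527 against 1166 CPM, -1.14). Among 38 genes measured in anti-PD-1 against control, none passed 2-fold (1.73% of all genes). In combination against anti-PD-1, 4 of 49 were higher and 3 lower, beside 3.53% and 1.84% of all genes, led by Qpct, a glutaminyl cyclase related to the enzyme that modifies CD47 (81.8 against 13.3 CPM, 2.53), Cd24a (1.98), the scavenger receptor Scarf1 (-1.40) and Cd33 (84.3 against 212 CPM, -1.32). In combination against BTYNB, Cd36, a scavenger receptor, alone of 51 passed it (325 against 129 CPM, 1.33), beside 1.88% of all genes higher. The dendritic and neutrophil markers given above also differed between libraries, though not to the same extent in each comparison. Their part in these ratios was not tested.

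Over the 16 combinations of gate and library, the genes whose log2 level followed Cd24a, Sirpa, Siglecg, Lrp1 and Calr most closely were sought among 11660 genes. These points share libraries and cell classes, so the coefficients are descriptions. Sirpa was followed most closely by Lrrc25, Ifitm6 and Cd300ld (Pearson r between 0.994 and 0.997), and Siglecg by Iglc3, an immunoglobulin light chain gene, Rasgrp3 and Ms4a1, encoding CD20 (0.972 to 0.976). Lrp1 was followed by Scamp1, Srd5a3 and Plod3 (0.963 to 0.975), and Calr by Pdia3, a fellow chaperone of glycoproteins, Rab1a and Psma4 (0.915 to 0.935). Cd24a had the loosest companions of these 5 genes, Ell2, Eapp and Capg (0.826 to 0.855).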

How the data were processed

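Ascites cells were captured on a BD Rhapsody HT system, and reads were processed by the authors with the BD Rhapsody Sequence Analysis Pipeline (genome GRCm39 per the submitters' notes). The deposited files hold whole-number UMI counts per gene and cell, without normalization or cell annotation. Cells with at least 200 genes and at most 33% mitochondrial UMIs (prefix mt-) were kept, and in each library the 5% with the highest Scrublet score (Scanpy 1.11.5) were removed, because its automatic threshold marked as few as 0.0128% of cells. The authors used scDblFinder and MitoCarta, which are not used here. Counts were summed over the cells of a gate and library and divided by all their UMIs (CPM). Levels have exact Poisson intervals, shares exact binomial ones, and log2 ratios (pseudocount 1 CPM) exact binomial intervals computed without the pseudocount. Thinned shares are hypergeometric expectations. PCR duplicates are removed by UMIs, and intervals cover counting error only.

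A gene was measured in a comparison with at least 100 UMIs in 1 of the 2 libraries, and called at 2-fold. Levels of different genes were not compared. Of the listed genes, up to 4 with the largest ratio past 2-fold were named per comparison, and for each of the 6 genes the 3 with the highest correlation among genes with at least 1000 UMIs; those of Cd47 are not reported here. The genes, gates and lists were chosen with earlier results of these data known. Scripts were tested on simulated data, in Python 3.11.15 with SciPy 1.17.1.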

Additional observations from a re-analysis of the deposited data

Results flagged for a closer look

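Calr in tumour cells was flagged because the anti-PD-1 antibody went with opposite small differences without and with BTYNB, 0.04 against control and -0.25 against BTYNB on the log2 scale, a difference of -0.30 (counting interval -0.32 to -0.28). With 1 library per group, this difference was not tested against the spread between animals.

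Cd24a in myeloid cells was flagged for the same reason, with -0.95 against control and 0.58 against BTYNB, a difference of 1.53 (1.20 to 1.87), also not tested. Without the dendritic-gene cells the values were -1.40 and 1.06.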

How the results depend on the processing

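No paired analysis was possible because each group has 1 library. For the same reason no replicate could be left out, and the spread between animals is unknown. Of 138 log2 ratios, 34 were past 2-fold; over their 347 alternatives, 317 kept the same direction past 2-fold, 27 kept the direction below it and 3 turned, and of 961 alternatives for the others 28 came past it.

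In tumour cells, Cd24a under anti-PD-1 relative to control had log2 ratios of 2.66 with a common UMI floor of 5115, 2.47 as a mean over cells, 2.63 with median-of-ratios scaling, 2.27 with a pseudocount of 10 CPM, 2.62 with doubled gate limits and 1.18 in cells without Gkn2 and Krtdap UMIs. In the same order, the combination relative to anti-PD-1 was at -3.05, -2.83, -3.04, -2.56, -3.06 and -1.80, and Gkn2/Krtdap-positive relative to other anti-PD-1 cells, which has no sixth value, at 2.44, 2.70, 2.71, 2.41 and 2.34. BTYNB relative to control was at -0.37 (mean over cells), -0.43 (pseudocount) and -0.74 (no Gkn2 and Krtdap), and the combination relative to BTYNB at 0.00515 (mean over cells). Sirpa in myeloid cells moved with the UMI floor, to -0.27, 0.31 and -0.26 for anti-PD-1 to control, the combination to anti-PD-1 and the combination to BTYNB.

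Only those of the 6 genes with at least 100 UMIs in 1 of the 2 libraries were counted here. The number past 2-fold in myeloid cells was 1 between BTYNB and control. It was 2 with the UMI floor and 0 with cells in exactly 1 gate, a mean over cells, the pseudocount, doubled limits or no dendritic-gene cells. Between anti-PD-1 and control it was 0, and 1 without doublet removal, with cells in exactly 1 gate, the UMI floor, doubled limits, free RNA subtracted and both restricted myeloid sets. Between the combination and BTYNB it was 0, and 1 as a mean over cells and in both restricted sets. With genes of at least 10 UMIs, the percentage of all genes past 2-fold in myeloid cells was 14.2, 5.92 and 10.6 for BTYNB to control, anti-PD-1 to control and the combination to anti-PD-1. Ratios that turned were Siglecg in B-gated cells of the combination to BTYNB (1.80 with the UMI floor), Sirpa in B-gated to tumour cells of BTYNB (-2.07 with free RNA subtracted) and Cd24a in B-gated to tumour cells of the combination (-0.00169 likewise). The causes were not tested. The sets without Gkn2/Krtdap, dendritic-gene or S100a8/a9-high cells and the keratin limit were chosen after seeing the data.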
